A study of Mus musculus with 2 samples.

Results

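The genes described here are 10 markers by which epithelial and mesenchymal tumor cells are usually told apart. They are the simple epithelial keratins Krt7, Krt8, Krt18 and Krt19, the surface glycoprotein Epcam, the cadherins Cdh1 and Cdh2, the claudins Cldn4 and Cldn7, and the intermediate filament Vim. They were taken by gene symbol from the 32285 genes of the deposited count matrices, and each of the 10 was found once. The counts came from droplet single-cell RNA-Seq of 2 orthotopic allograft tumors grown in the mouse pancreas. One tumor grew from KPC-shV cells (control lentivirus) and the other from KPC-shZEB1 cells (lentiviral hairpin against Zeb1), and each was 1 mouse and 1 library. KPC cells are a pancreatic cancer line made from genetically engineered mice with Pdx-1-Cre, and both lines passed through antibiotic selection. Per the study's text both mice received gemcitabine, a cytotoxic nucleoside, which the sample labels do not mention. The study selected several lines per construct, and which of them was injected was not given in the sources used here. The mice were a few weeks old, and of the strains used (C57BL/6J, BABL/c and NSG) the one that carried these 2 tumors was not given either. The study ties the sequenced tumors to an experiment it describes as done in immunocompetent mice.

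Each group was a single library, so no test was made. Every interval is a 95% interval for counting error alone and says nothing of the spread between mice. After filtering, 11398 cells of the KPC-shV library and 12104 of the KPC-shZEB1 library were kept, with a median of 3720 and 4252 unique molecular identifiers (UMIs, counted RNA molecules) per cell. The 2 matrices shared 46 cell barcodes. The matrices were clustered without the 10 genes and without a list of related genes, and 4 clusters, with 1491 and 1419 cells, carried tumor markers such as Itgb4 and Sox9. These tumor-like subpopulations are called by their leading genes, in the case of Fermt1 by 1 gene. Fermt1 held 678 and 692 cells, Prg4-Cntn5 held 479 and 189, Dbf4-S100a14 held 323 and 311, and Zfp804b-Ralyl held 11 and 227. Over both libraries together a UMI in at least 10% of cells was found for 19 of the 20 tumor markers in Fermt1 and in Zfp804b-Ralyl, for 18 in Prg4-Cntn5 and for 12 in Dbf4-S100a14. Levels are UMIs of a gene per 1000000 UMIs of all genes in the class (CPM), and a ratio is the KPC-shZEB1 level over the KPC-shV level.

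Keratins pair as type I and type II chains to form the filaments of epithelial cells, and in simple epithelia such as pancreatic duct the pairs are Krt8 with Krt18 and Krt7 with Krt19. Cdh1 (E-cadherin) joins neighboring cells at adherens junctions, claudins seal the paracellular space at tight junctions, and Epcam is a surface protein of epithelia. In epithelial-mesenchymal transition these genes fall while Cdh2 (N-cadherin) and Vim rise, and the transcription factor ZEB1 is known as a repressor of Cdh1 that binds E-box sequences.

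Zeb1, the targeted gene, did not fall with its hairpin. Tumor-like cells held it at 167 CPM in KPC-shV and at 189 CPM under the KPC-shZEB1 label, and the ratio was 1.13 (1.09 to 1.17). The ratio was 1.19 (1.13 to 1.25) in Fermt1 and 1.23 (1.16 to 1.31) in Prg4-Cntn5. T-like cells of the same libraries held 1347 and 1506 CPM and monocyte-macrophage-like cells, the lowest of the immune classes, 47.4 and 73.5 CPM, so Zeb1 RNA from other cells was present in both suspensions. Granulocyte-like cells held 159 and 238 CPM, near or above the tumor-like levels, and the tumor cells' own part in the ratio was not tested. The study assayed the knockdown in KPC cells and stained tumors for Zeb1, both outside these counts. All directions below are therefore between libraries as labelled, and KPC-shZEB1 means the library labelled so.

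The E-box forms CACCTG and CAGGTG, which are reverse complements of each other and so cover both strands, were searched in the 250 bases before each start site of the RefSeq promoter table (GRCm38.p6). Of the 9 genes searched, Krt7, Krt18, Epcam, Cldn4, Cldn7 and Vim had an entry. At least 1 match lay before 5 of the 7 start sites of these 6 genes, against 17.2% of all 32851 entries (5657). The windows are shown because they are the sequences at which the targeted factor's textbook motif occurs in these genes. Each is 30 bases, 5′ to 3′ on the gene's strand, with the motif in capitals.
Krt7, chr15:101412347-101412376, plus strand: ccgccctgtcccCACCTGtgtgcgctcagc
Krt18, chr15:102027990-102028019, plus strand: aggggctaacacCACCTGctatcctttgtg
Epcam, chr17:87635780-87635809, plus strand: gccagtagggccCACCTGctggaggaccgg
Epcam, chr17:87635948-87635977, plus strand: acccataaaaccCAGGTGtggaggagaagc
Cldn4, chr5:134946935-134946964, minus strand: ggagctttaactgcagCACCTGtggccgcc
Cldn7, chr11:69965312-69965341, plus strand: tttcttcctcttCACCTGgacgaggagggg
Cldn7, chr11:69965352-69965381, plus strand: agacttccggttCAGGTGagtgtcccttca
The first base of the motif lay 44 bases before the start in Krt7, 214 in Krt18, 187 and 19 in Epcam, 14 in Cldn4, and 97 and 57 before the second start of Cldn7. The window before the first start of Cldn7 and that of Vim held neither form. A match describes these letters and does not show binding.

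Within the Fermt1 subpopulation, which carried the epithelial RNA, 6 of the 8 epithelial genes were higher in the library labelled KPC-shZEB1 and 2 claudins were lower. The keratins led. Krt19, a type I keratin of duct cells, stood at 724 CPM in KPC-shV and 962 CPM in KPC-shZEB1, a ratio of 1.33 (1.30 to 1.36). Krt7, its type II partner, stood at 577 and 720 CPM, a ratio of 1.25. Krt8 stood at 1836 and 2053 CPM (1.12, 1.10 to 1.13) and Krt18 at 1806 and 2009 CPM (1.11). All 4 keratins moved one way, and the Krt7 and Krt19 pair moved further than the Krt8 and Krt18 pair. Over all immune cells the ratios were 1.45 for Krt7, 1.53 for Krt19, 1.23 for Krt8 and 1.18 for Krt18. The same order and direction were thus found outside the tumor-like cells. What part of the Fermt1 ratios belongs to the tumor cells was not tested.

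Among the surface and adhesion genes of the same cells, Cdh1 stood at 364 CPM in KPC-shV and 441 CPM in KPC-shZEB1, a ratio of 1.21 (1.17 to 1.25). Epcam stood at 551 and 616 CPM, a ratio of 1.12 (1.09 to 1.15). Cldn4 stood at 106 and 96.5 CPM, a ratio of 0.906 (0.851 to 0.965). Cldn7, which with Epcam forms a complex at the lateral membrane, stood at 165 and 108 CPM, a ratio of 0.654 (0.619 to 0.692). Cldn7 was thus the member that went the other way from Epcam by the widest margin, and Cldn7 UMIs per Epcam UMI were 0.299 in KPC-shV and 0.175 in KPC-shZEB1. Vim stood at 1074 and 1157 CPM (1.08, 1.06 to 1.10), and Cdh2 at 1.67 and 2.27 CPM, with an interval of the ratio from 0.846 to 2.21. Over all immune cells the ratios were 1.37 for Cdh1, 1.37 for Epcam, 1.13 (0.969 to 1.31) for Cldn4, 0.831 for Cldn7 and 1.17 for Vim.

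A gene was called where its ratio reached 1.5 in either direction, its interval did not hold 1 and it had at least 100 UMIs over both libraries. In Fermt1 this called 0 of the 8 epithelial genes higher and 1, Cldn7, lower, against 6.88% of all genes tested called higher and 2.25% lower. The median log2 ratio of the 8 was 0.16 and that of all genes 0.05. The directions of the small ratios depended on how these cells were clustered. With each library clustered alone the ratio of Epcam was 0.884, of Cdh1 0.961, of Krt8 0.977 and of Krt18 0.988, while Krt19 stayed at 1.07 and Krt7 at 1.04. At a coarser clustering Cdh1 was at 1.60, Epcam at 1.48 and Cldn4 at 1.22. Cldn7 was below 1 under each of the clusterings run, from 0.523 to 0.863.

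**Figure D1:**
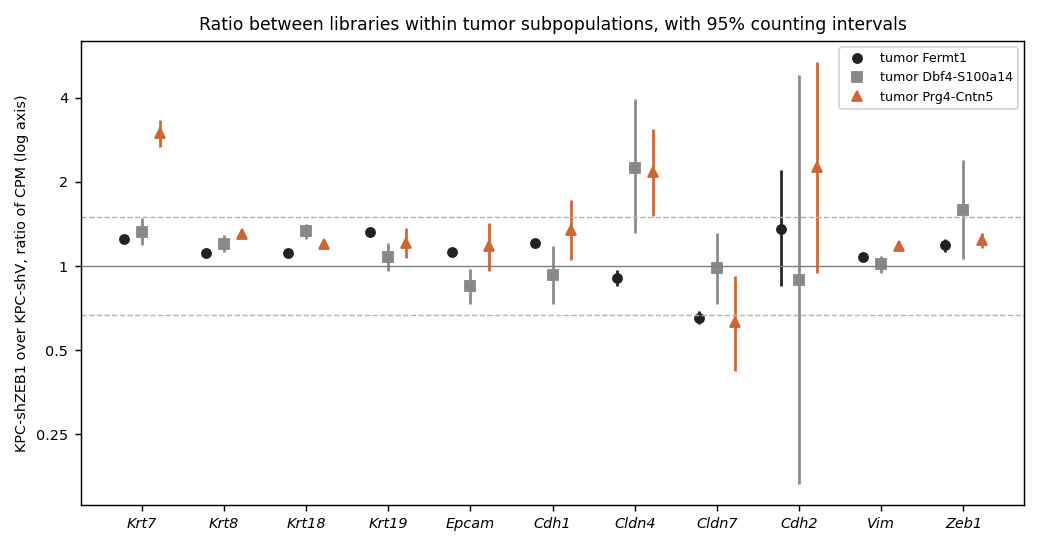
Ratio of the level in KPC-shZEB1 over that in KPC-shV (log axis) for each of the 10 genes and Zeb1 in 3 tumor-like subpopulations, with lines for the 95% counting interval and dashed lines at 1.5-fold. In Fermt1 Cldn7 lies at 0.654 and Krt7 at 1.25, and in Prg4-Cntn5 Krt7 lies at 2.98.

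The Prg4-Cntn5 subpopulation held Krt8 and Krt18 above the level found in immune cells, and Epcam, Cdh1 and the claudins near that level. Granulocyte-like cells, which are not known to make keratins, gave that reference. Krt8 in Prg4-Cntn5 stood at 600 CPM in KPC-shV and 781 CPM in KPC-shZEB1, which was 4.64 and 4.42 times the granulocyte-like level of the same library. Krt18 stood at 793 and 950 CPM, or 6.32 and 5.79 times that level. Epcam, by contrast, stood at 22.7 and 26.7 CPM against 26.5 and 36.3 CPM in granulocyte-like cells. Cdh1 stood at 13.3 and 17.9 CPM against 20.1 and 32.7 CPM, and Krt19 at 56.4 and 68.1 CPM against 44.3 and 74.3 CPM. For Epcam and Cdh1 the values in these cells are therefore read as background. Krt19 was 1.27 (1.16 to 1.40) times the granulocyte-like level in KPC-shV and 0.917 (0.814 to 1.03) times in KPC-shZEB1.

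Krt7 in Prg4-Cntn5 differed most between the libraries. It stood at 39.9 CPM in KPC-shV, or 1.13 times the granulocyte-like level, and at 119 CPM in KPC-shZEB1, or 1.98 times that level. Its ratio was 2.98 (2.66 to 3.34). At 5000 UMIs per cell, Krt7 was found in 16.2% of 452 cells and in 36.0% of 186 cells, beside 13.8% and 20.8% of immune cells. Cldn4 had a ratio of 2.17 (1.51 to 3.10) and Cldn7 of 0.630, but at 4.91 and 10.6 CPM for Cldn4 and 9.67 and 6.10 CPM for Cldn7 they were 0.812 to 1.32 and 0.643 to 0.924 times the granulocyte-like level. Their ratios are thus ratios of background levels. The call rule took 2 of the 8 epithelial genes as higher (Krt7 and Cldn4) and 1 as lower (Cldn7), against 5.12% and 2.93% of all genes. Vim, the filament of mesenchymal cells, stood at 1590 and 1873 CPM, 7.28 and 7.54 times the granulocyte-like level.

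Krt8 and Krt18 did not keep one proportion across subpopulations. Krt18 UMIs per Krt8 UMI were 0.984 and 0.979 in Fermt1, 0.971 and 0.927 in granulocyte-like cells, and 1.32 (1.28 to 1.36) and 1.22 (1.17 to 1.26) in Prg4-Cntn5. Epcam UMIs per Krt8 UMI were 0.300 in both libraries in Fermt1, 0.205 in both in granulocyte-like cells, and 0.0378 and 0.0341 in Prg4-Cntn5. The annotation holds a Krt8 pseudogene, and whether reads were shared with it was not tested.

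**Figure D2:**
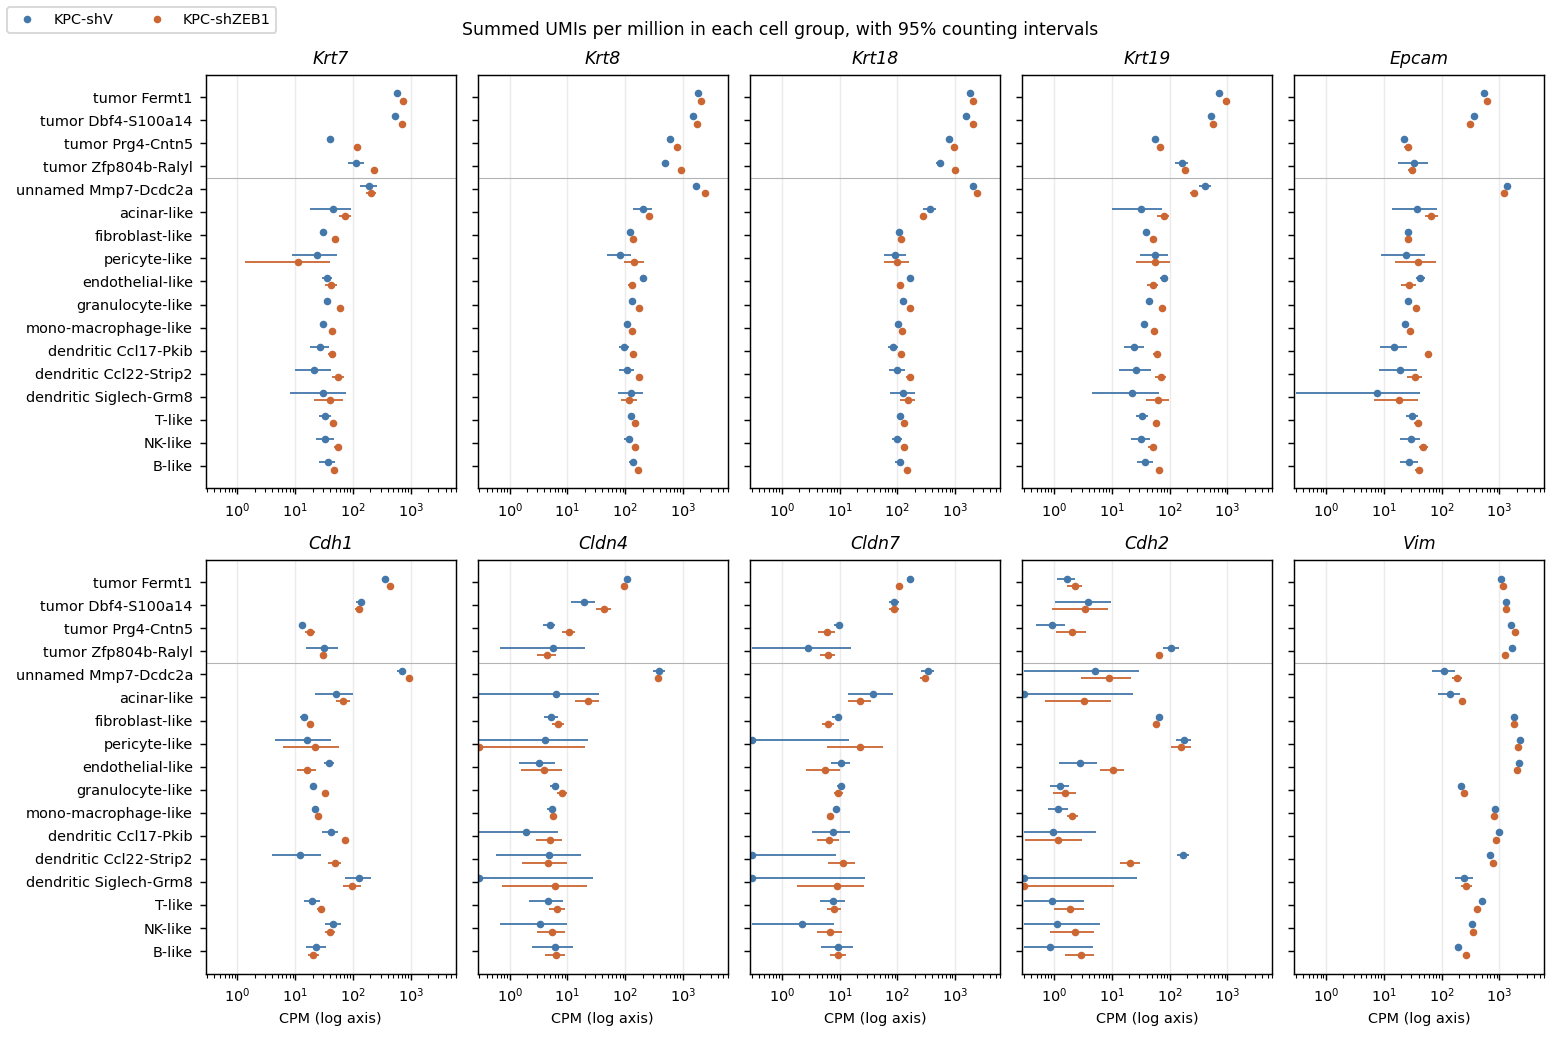
Level in CPM (log axis) of each of the 10 genes in each tumor-like subpopulation and host class, 1 point per library with its 95% counting interval, and with values of 0 drawn at the left edge. Epcam lies at 551 and 616 CPM in Fermt1 and at 22.7 and 26.7 CPM in Prg4-Cntn5, whereas Vim lies above 1000 CPM in all 4 tumor-like subpopulations.

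Between Fermt1 and Prg4-Cntn5 the epithelial genes differed by more than between the libraries within Fermt1. Epcam was 24.3-fold higher in Fermt1 than in Prg4-Cntn5 in KPC-shV and 23.1-fold higher in KPC-shZEB1, and Cdh1 was 27.4-fold and 24.6-fold higher. Cldn7 was 17.0-fold and 17.7-fold higher, Krt19 12.9-fold and 14.1-fold, Krt7 14.5-fold and 6.06-fold, and Cldn4 21.7-fold and 9.08-fold. The Prg4-Cntn5 levels of Epcam, Cdh1 and the claudins behind these folds are background. Krt8 differed by 3.06-fold and 2.63-fold and Krt18 by 2.28-fold and 2.12-fold. Vim was at 0.675 and 0.618 of its Prg4-Cntn5 level. A gene at least 3-fold higher in Fermt1 in both libraries was found for 6 of the 9 members tested (Krt7, Krt19, Epcam, Cdh1, Cldn4 and Cldn7), against 4.40% of all genes, and a gene at least 3-fold lower for 0, against 1.63%. The clusters were made from other genes of the same cells, so these are descriptions.

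Related junction and keratin genes showed the same contrast. From a list of 79 genes (keratins, adherens and tight junction, desmosome, epithelial surface and regulators, other filaments), 54 had enough UMIs, and 30 of them (55.6%) were at least 3-fold higher in Fermt1 than in Prg4-Cntn5 in both libraries. None were 3-fold lower. The desmosome group gave 7 of 9 (Dsp, Pkp2, Pkp3, Dsg2, Dsc2, Ppl and Perp), the epithelial regulators 5 of 5 (Esrp1, Esrp2, Grhl2, Ovol1 and Rab25) and the keratins 4 of 5 (Krt14, Krt17, Krt20 and Krt23). The tight junction group gave 12 of 21, among them Cldn3, Ocln and Tjp3. The adherens junction group gave 2 of 12, Cdh6 and Cdh17, and the catenins and nectins were not among them. Against Zfp804b-Ralyl the same 6 members passed, and 21 of 53 list genes, against 3.05% of all genes higher and 1.07% lower. Against Dbf4-S100a14, by contrast, 0 of 9 members were 3-fold higher or lower in both libraries, against 8.09% of all genes higher and 0.764% lower. Krt7 differed there by 1.07-fold in KPC-shV and 1.01-fold in KPC-shZEB1, and Cdh1 by 2.68-fold and 3.51-fold.

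**Figure D3:**
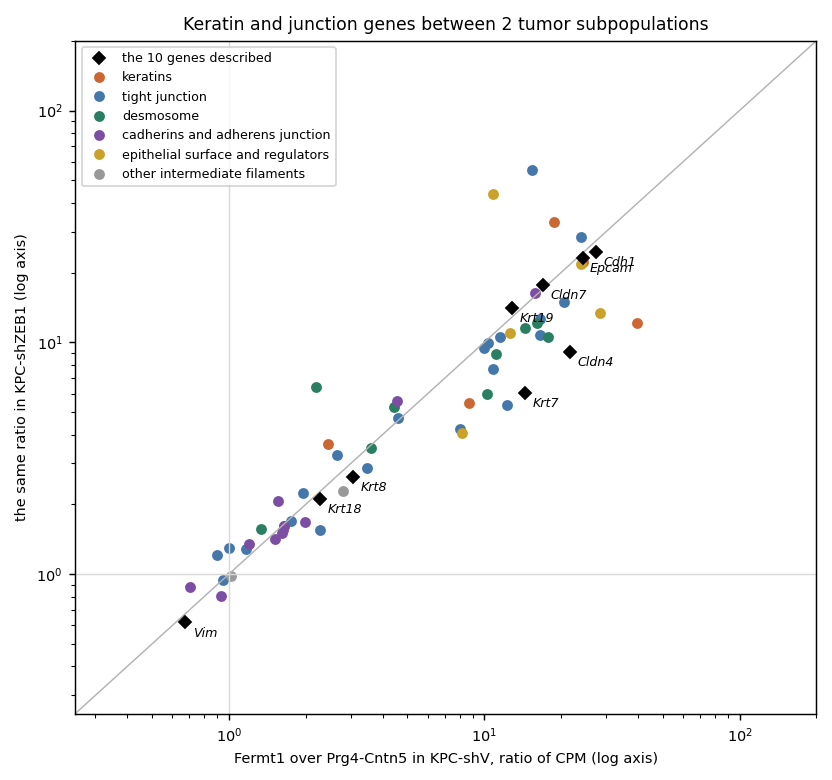
Fold of the level in Fermt1 over that in Prg4-Cntn5 in KPC-shV (horizontal, log axis) and in KPC-shZEB1 (vertical, log axis) for 9 of the 10 genes (Cdh2 had too few UMIs) and the related genes, colored by group. Epcam and Cdh1 lie beyond 20-fold on both axes, Krt8 and Krt18 between 2 and 4, and Vim below 1.

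Single cells of Fermt1 were not uniform. After each cell was thinned to 5000 UMIs, 637 and 672 cells remained. A Krt8 UMI was found in 98.4% and 99.4% of them, a Krt18 UMI in 98.0% and 99.3%, and a Vim UMI in 82.4% and 84.8%. Epcam was found in 49.8% (45.8 to 53.7) of KPC-shV cells and 60.4% (56.6 to 64.1) of KPC-shZEB1 cells, against 10.3% and 14.9% of immune cells at the same depth. Cdh1 was found in 53.2% and 63.4%, Cldn4 in 23.9% and 25.1%, and Cldn7 in 35.2% and 28.7%. The median cell held 0 and 1 Epcam UMIs, the cell at the 90th percentile 8 and 9, and the highest 27 and 23. Immune cells at that depth gave a Krt8 UMI in 41.0% and 50.2%, Krt18 in 40.7% and 46.7%, and Vim in 78.5% and 84.5%. They gave Cdh1 in 10.4% and 13.3%, Cldn4 in 2.30% and 3.01%, and Cldn7 in 4.05% and 3.57%. UMIs of Krt8 and Krt18 were thus found in nearly every Fermt1 cell, and those of Epcam, Cdh1 and the claudins in some. The Vim shares were near those of immune cells.

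Cells were then split by their own Epcam UMIs at that depth, into 0, 1 to 2, 3 to 5 and 6 or more. In KPC-shV 50.2% of the Fermt1 cells held 0 Epcam UMIs and 18.1% held 6 or more. In KPC-shZEB1 the shares were 39.6% and 22.0%. Cdh1 rose through the 4 steps, at 99.1, 337, 574 and 865 CPM in KPC-shV and 123, 425, 687 and 847 CPM in KPC-shZEB1. Vim went the other way, at 1543, 1063, 434 and 460 CPM in KPC-shV and 1631, 1245, 788 and 507 CPM in KPC-shZEB1. The 2 libraries gave a Cdh1 gradient of 8.73-fold (8.11 to 9.40) and 6.88-fold from the first step to the last, and Vim fell to 0.298 and 0.311 of its first step.

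The claudins followed Epcam most steeply. Cldn4 went from 15.4 to 271 CPM in KPC-shV (17.7-fold) and from 17.9 to 216 CPM in KPC-shZEB1 (12.1-fold). Cldn7 went from 32.6 to 372 CPM (11.4-fold) and from 23.6 to 215 CPM (9.11-fold). Cldn7 was lower in KPC-shZEB1 at both ends, also in the cells richest in Epcam. The keratins followed less steeply. Krt7 rose by 2.59-fold and 2.23-fold, Krt19 by 2.33-fold and 2.34-fold, Krt8 by 1.71-fold and 1.53-fold, and Krt18 by 1.47-fold and 1.38-fold. Zeb1 went from 191 to 50.2 CPM in KPC-shV, a fall to 0.262, and from 216 to 87.0 CPM in KPC-shZEB1, to 0.402, values at the last step close to those of monocyte-macrophage-like cells. S100a9, a granulocyte gene, stood at 541 and 549 CPM in the first and last step of KPC-shV and at 233 and 259 CPM in KPC-shZEB1, so it did not follow Epcam.

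**Figure D4:**
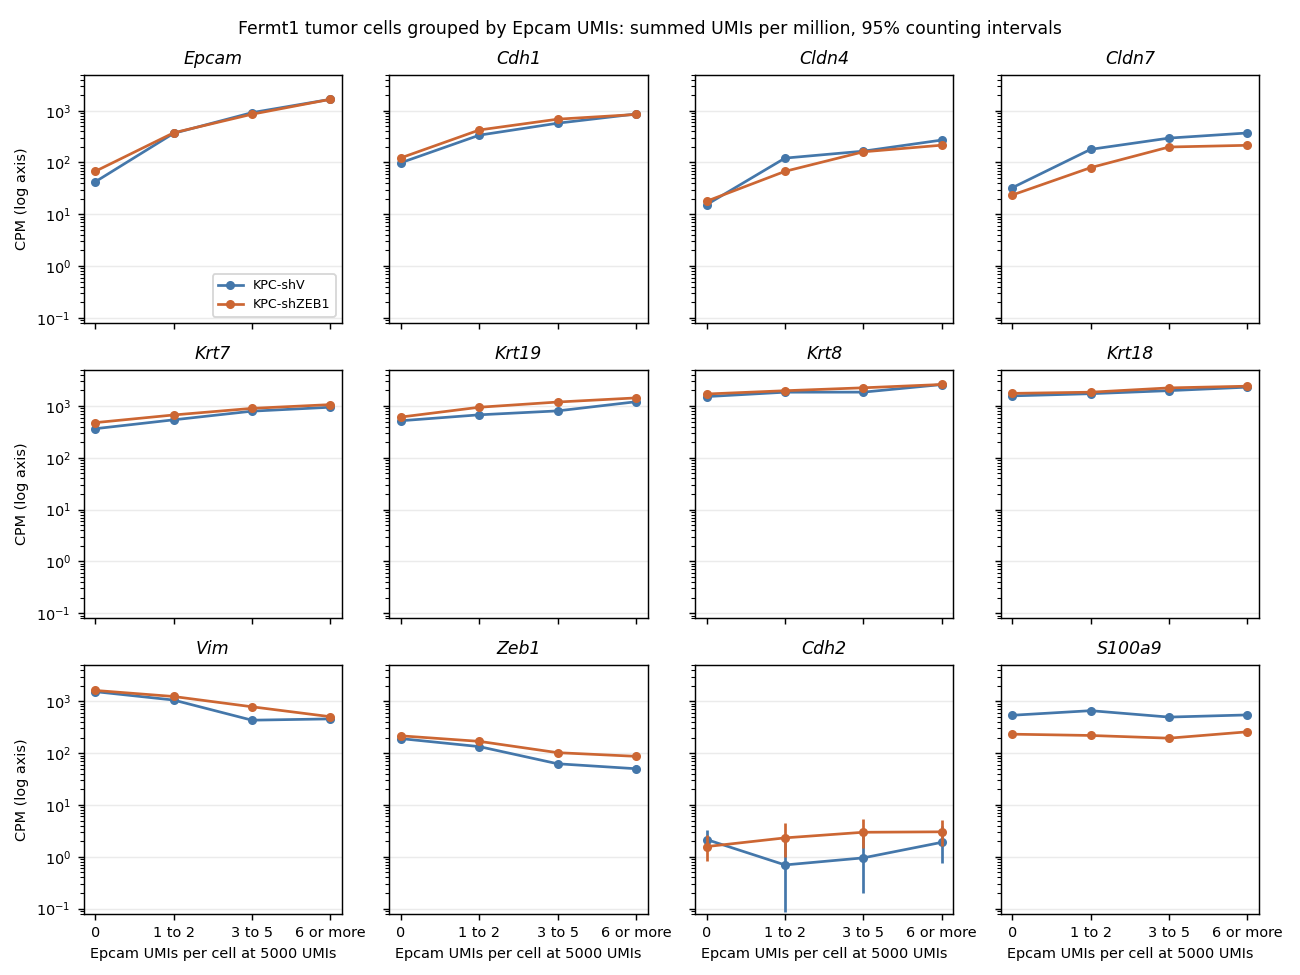
Level in CPM (vertical, log axis) of the members, Zeb1 and S100a9 in Fermt1 cells grouped by Epcam UMIs per cell at 5000 UMIs (horizontal), 1 line per library with 95% counting intervals. Cdh1 climbs from 99.1 to 865 CPM in KPC-shV and from 123 to 847 CPM in KPC-shZEB1, and Vim falls from 1543 to 460 CPM and from 1631 to 507 CPM.

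The members also varied together from cell to cell. Across the 637 and 672 cells of Fermt1, Pearson's r of log UMIs was 0.66 and 0.63 for Epcam with Cdh1, and -0.49 and -0.48 for Epcam with Vim. Cdh1 with Vim gave -0.45 and -0.37, and Krt8 with Krt18 gave 0.56 and 0.49. Krt8 with Vim gave -0.02 and 0.03, and Krt18 with Vim 0.02 and 0.05. The cells of a library share its depth, its free RNA and 1 tumor, so these values are descriptions. Epcam and Cdh1 thus ran against Vim over single cells, and Krt8 and Krt18 did not.

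Both an Epcam and a Vim UMI were found in 24.2% (21.8 to 26.8) of 1151 tumor-like cells of KPC-shV and 34.7% (32.0 to 37.6) of 1149 of KPC-shZEB1, with 340 and 270 shallower cells left out. In Fermt1 the share was 34.4% (30.7 to 38.2) and 46.6% (42.8 to 50.4). Epcam alone was found there in 15.4% and 13.8%, and Vim alone in 48.0% and 38.2%. In Prg4-Cntn5 both were found in 7.74% and 13.4%, where Epcam itself was at the background. Immune cells at the same depth gave a Vim UMI in 78.5% and 84.5% and an Epcam UMI in 10.3% and 14.9%, so these are shares of cells with the UMIs and not of cells expressing both genes.

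**Figure D5:**
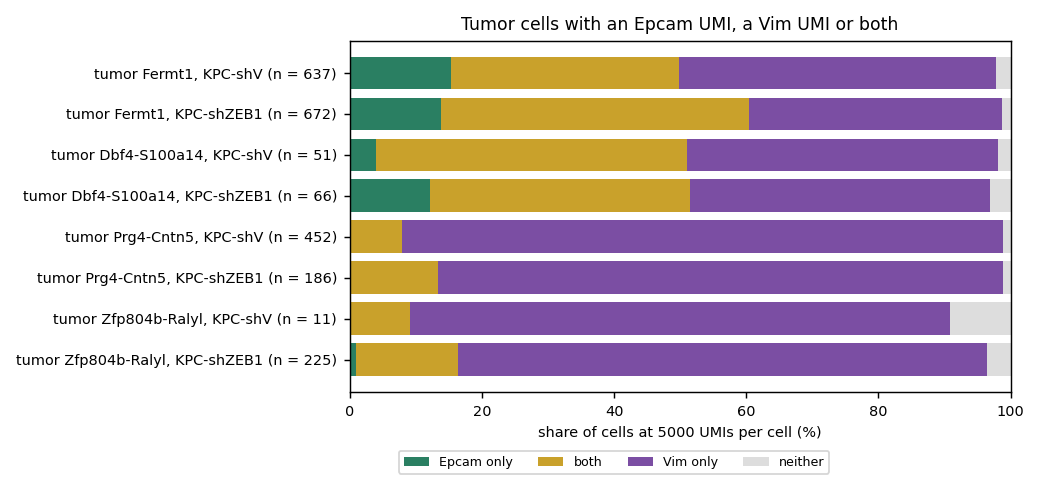
Share of cells (horizontal, percent) with an Epcam UMI only, both, a Vim UMI only or neither after thinning to 5000 UMIs, 1 stacked bar for each tumor-like subpopulation and library. In Fermt1 both were found in 34.4% of KPC-shV cells and in 46.6% of KPC-shZEB1 cells.

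Dbf4-S100a14 cells were shallow, with a median of 2169 and 2258 UMIs, and macrophage markers summed to 4699 and 6421 CPM there against 3316 and 3085 CPM for tumor markers. The part of these markers in the values below was not tested. Krt7 stood at 538 and 714 CPM (1.33), Krt8 at 1467 and 1767 CPM (1.20), Krt18 at 1530 and 2036 CPM (1.33) and Krt19 at 520 and 558 CPM. Epcam stood at 363 and 307 CPM, a ratio of 0.845 (0.730 to 0.979), and Cdh1 at 136 and 126 CPM. Cldn7 stood at 88.8 and 87.2 CPM, and Vim at 1292 and 1310 CPM. Of the 7 epithelial genes with enough UMIs 0 were called, against 5.47% of all genes called higher and 2.99% lower. Krt7, Krt8 and Krt18 thus had ratios above 1 and Epcam one below 1, and the interval for Krt19 (0.957 to 1.21) held 1.

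Cdh2 (chromosome 18, 16588877 to 16809246, minus strand, GRCm38) had its tumor-cell RNA in the Zfp804b-Ralyl subpopulation, which held 11 cells of KPC-shV and 227 of KPC-shZEB1. There it stood at 107 CPM (38 UMIs in 6 of the 11 cells) and 66.8 CPM (482 UMIs in 149 of the 227 cells), a ratio of 0.623 (0.447 to 0.892). In Fermt1 and Prg4-Cntn5 it stood between 0.924 and 2.27 CPM, near the 1.27 and 1.56 CPM of granulocyte-like cells. Over all tumor-like cells Cdh2 was at 2.51 and 16.0 CPM, a ratio of 6.37 (5.07 to 8.09) that went with the number of Zfp804b-Ralyl cells. Within that subpopulation Krt8 stood at 496 and 934 CPM, Krt18 at 550 and 1002 CPM, Krt7 at 113 and 229 CPM and Vim at 1619 and 1250 CPM. Epcam stood at 33.8 and 30.1 CPM and Cdh1 at 31.0 and 30.8 CPM, both near the granulocyte-like level. Summed over its cells, this subpopulation was thus low in Epcam and Cdh1 and held Krt8 and Krt18. The cells with a Cdh2 UMI were not examined apart from the rest. Whether this cluster belongs to the construct or to the 1 mouse cannot be told apart.

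Among the host cells Cdh2 was highest in pericyte-like and fibroblast-like cells and in 1 dendritic group. Pericyte-like cells held 177 and 161 CPM (14 and 10 cells) and fibroblast-like cells 66.3 and 58.5 CPM (361 and 378 cells). Endothelial-like cells held only 2.85 and 10.5 CPM, which was 2.25 (0.887 to 5.03) and 6.75 (3.43 to 13.2) times the granulocyte-like level. The Ccl22-Strip2 dendritic-like cells held 170 CPM in KPC-shV, 71 UMIs in 11 of 40 cells with 25 of them in 1 cell, and 21.1 CPM in KPC-shZEB1, 28 UMIs in 10 of 114 cells. The intervals of Zfp804b-Ralyl and fibroblast-like cells overlapped in KPC-shZEB1 and did not in KPC-shV. Vim was high across the stroma, at 2279 and 2097 CPM in pericyte-like, 2183 and 2023 CPM in endothelial-like and 1785 and 1814 CPM in fibroblast-like cells. Over 7 immune classes Vim ranged from 195 to 1001 CPM in KPC-shV and from 248 to 856 CPM in KPC-shZEB1.

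Krt8 lay in a narrow band in immune cells, and Cdh1 and Epcam in wider ones. Over the 7 immune classes Krt8 ranged from 95.9 to 136 CPM in KPC-shV and from 131 to 177 CPM in KPC-shZEB1, and Cldn4 from 1.90 to 6.04 and from 4.53 to 8.07 CPM. Epcam ranged from 15.2 to 30.7 CPM and from 28.5 to 58.6 CPM, and Cdh1 from 11.96 to 45.6 CPM and from 20.6 to 73.8 CPM. Against the granulocyte-like level Cdh1 was highest in mast-basophil-like cells, at 13.1 times in KPC-shV (2 cells, 2 UMIs) and 7.07 (4.33 to 10.9) times in KPC-shZEB1 (16 cells, 21 UMIs), followed by the small Siglech-Grm8 dendritic-like group at 6.33 and 2.94 times. In Ccl17-Pkib dendritic-like cells it was at 2.04 and 2.25 times, with a UMI in 26 of 63 and 109 of 203 cells. NK-like cells gave 2.28 and 1.24 times. A small cluster led by Mmp7 and Dcdc2a, left unnamed, held 7 and 26 cells and had the highest Epcam of any class, 1357 and 1199 CPM, with Cdh1 at 702 and 938 CPM, Cldn4 at 388 and 375 CPM and Vim at 110 and 182 CPM. Its best-scoring marker list was that of duct cells, with all 5 ductal markers past the naming rule. The rule left it unnamed because its leading genes held a pericyte marker, Rgs5, and no ductal marker.

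Over all tumor-like cells the 8 epithelial genes had a median log2 ratio of 0.26, against 0.03 for all genes. Krt7 stood at 353 and 514 CPM (1.46, 1.42 to 1.49), Krt19 at 441 and 632 CPM (1.43, 1.40 to 1.46), Krt8 at 1309 and 1590 CPM (1.21) and Epcam at 325 and 381 CPM (1.17, 1.14 to 1.20). None of the 8 reached the call threshold of 1.5 in either direction, against 8.69% of all genes called higher and 2.98% lower. The ratios over all immune cells were 1.45 for Krt7, 1.53 for Krt19, 1.23 for Krt8 and 1.37 for Epcam. These sums mix subpopulations whose shares differed between the libraries, Prg4-Cntn5 at 32.1% and 13.3% of tumor-like cells and Zfp804b-Ralyl at 0.738% and 16.0%. Cldn4 shows the mixing, at 61.5 and 60.5 CPM (0.983, 0.925 to 1.05) over all tumor-like cells. Ptprc, a pan-leukocyte gene, stood at 48.6 and 78.4 CPM in these cells and S100a9 at 549 and 232 CPM, and their part in the ratios was not tested.

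In the related list, 64 of the 78 genes found had enough UMIs in tumor-like cells, 11 (17.2%) were called higher and 1 lower, against the 8.69% and 2.98% of all genes, with a median log2 ratio of 0.17. Without Zfp804b-Ralyl, or at a coarser clustering, 18 were higher and 0 lower. The coarser clustering left 1475 and 1194 tumor-like cells, against 1491 and 1419, and Zfp804b-Ralyl held 11 and 227. The 2 settings may thus be largely the same change. With at least 500 UMIs 7 were higher, and with no filter on low counts 4 were lower. Krt14 and Krt16, keratins of stratified epithelia, gave the highest ratios. Krt14, a basal keratin, stood at 4.42 and 10.9 CPM (2.47, 2.04 to 3.00) and Krt16 at 1.96 and 3.66 CPM (1.86). Krt23 (1.804), the adhesion molecule Nectin3 (1.83) and the filament gene Nes (1.75) completed the first 5. The other genes called higher were Marveld3 and Tjp3 of the tight junction, Dsg2 and Dsc2 of the desmosome, and the regulators Ovol1 and Ovol2. The 5 lowest ratios were those of Synm (0.620, the 1 gene called lower), Cldn6 (0.672), Cdh3 (0.712), Pard3 (0.799) and Pkp1 (0.802).

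In Fermt1 alone 11 of 59 list genes were called higher, among them 4 of the 6 keratins tested (Krt14, Krt16, Krt17 and Krt23), and 1 was lower, Cldn6 at 0.628, against 6.88% and 2.25% of all genes. Krt14 stood there at 5.32 and 17.2 CPM, a ratio of 3.23 (2.58 to 4.07), again with no granulocyte-like level computed beside it. In Dbf4-S100a14, with too few UMIs for the call rule, Krt14 went the other way, from 44.9 to 7.69 CPM (0.171, 0.0738 to 0.354), as did Krt17, from 61.1 to 13.7 CPM (0.224, 0.121 to 0.392). In Prg4-Cntn5 4 of 31 were called higher (Cgnl1, Cldn18, Dsg2 and Nes) and 0 lower, against 5.12% and 2.93% of all genes. In Dbf4-S100a14 1 of 19 was called higher, Cldn3, at 88.8 and 213 CPM (2.40), a share near the 5.47% of all genes. Claudins thus went both ways in Fermt1, with Cldn7 and Cldn6 lower and Cldn15 higher.

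The genes most like each member in pattern were found by Pearson's r of log2(CPM + 1) over 24 points, 12 classes in 2 libraries, which share the 2 tumors. Krt8 and Krt18 were nearest to Wfdc2, a secreted epithelial protein, both at r = 0.99. Epcam and Krt7 were nearest to Rab25, an epithelial trafficking GTPase, at r = 0.96, and Cldn4 to Paqr5 (0.96) and Cldn3 (0.96). Krt19 was nearest to the epithelial galectin Lgals4 (0.98), Cldn7 to Gpa33 (0.95), Cdh1 to Tmem45b and Cdh17 (both 0.92), Vim to Lrrc58 and Tspan31 (both 0.93) and Cdh2 to Cryaa (0.96). Krt8 and Krt18 shared both of their nearest genes, Wfdc2 and Mcpt8, and Epcam shared 1 each with Krt7 and Cldn4.

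The genes lie, on GRCm38, at 15:101411043-101430313 for Krt7 (plus strand), 15:101996698-102004482 for Krt8 (minus) and 15:102028180-102032027 for Krt18 (plus), which places Krt8 and Krt18 side by side in the type II keratin cluster. Krt19 lies at 11:100140810-100148665 (minus), Epcam at 17:87635979-87651129 (plus), Cdh1 at 8:106603351-106670246 (plus), Cldn4 at 5:134945119-134946934 (minus), Cldn7 at 11:69964779-69967885 (plus) and Vim at 2:13573927-13582826 (plus).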

How the data were processed

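Single-cell suspensions of the 2 tumors were sequenced by the authors with the 10x Genomics 3′ v3.1 kit. The authors deposited UMI counts per gene and cell, not normalized, made per the labels with Cell Ranger 7.0.1 on mm10. Whether intronic reads were counted was not given in the sources used here. From the counts, cells were kept that had 500 genes or more, between 1000 and 60000 UMIs, and mitochondrial UMIs of 15% or less, and cells with a Scrublet score above 0.2 (2.69% and 2.76%) were removed. Both libraries were clustered together (scanpy 1.11.5, leidenalg 0.10.2; 3000 variable genes, 30 components, 20 neighbors, resolution 1) without alignment, whereas the study used Seurat, DoubletFinder and Harmony. The 10 genes and the list of 79 were kept out of the variable genes. Classes were named from marker lists. UMIs were summed per class and library (CPM, exact Poisson intervals; ratios with exact conditional intervals; shares with exact Clopper-Pearson intervals, scipy 1.17.1). Single cells were thinned to 5000 UMIs. Total UMIs were 130941086 and 143461224. The genes, lists, markers and tests were chosen with earlier results of these data known. Named genes were Zeb1, the 10 members, the 5 highest and 5 lowest ratios of the list, list genes past 1.5-fold where 10 or fewer, and the 2 genes most alike per member. The other genes named (S100a9, Ptprc and list genes named in counts) were chosen after their values were seen. The scripts were tested on simulated counts. One promoter window is not reported here.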

Additional observations from a re-analysis of the deposited data

Results flagged for a closer look

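Epcam and Cldn4 moved in opposite directions between the libraries in 2 tumor-like subpopulations, which is what drew attention to them. The ratio of Epcam, KPC-shZEB1 over KPC-shV, was 1.119 in Fermt1 and 0.8455 in Dbf4-S100a14. The ratio of Cldn4 was 0.906 in Fermt1 and 2.237 (1.31 to 3.97) in Dbf4-S100a14, where Cldn4 stood at 19.1 and 42.7 CPM and had too few UMIs for the call rule. The Fermt1 directions turned with the clustering, to 0.884 for Epcam with each library clustered alone and to 1.22 for Cldn4 at Leiden resolution 0.5 or without doublet removal. With 1 library per group the differences between the subpopulations were not tested.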

How the results depend on the processing

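No paired analysis was possible because each group was 1 library. The values over all tumor-like cells given next kept their direction under the alternatives run, except Vim, whose ratio lay on both sides of 1, as did that of Cldn4 (0.939 to 1.22). The main values were a median log2 ratio of 0.26 for the epithelial genes, ratios of 1.28 for Cdh1, 6.37 for Cdh2 and 1.01 for Vim, 11 list genes higher and 1 lower, and 10.5 percentage points more cells with both an Epcam and a Vim UMI in KPC-shZEB1. Without an upper UMI limit they were 0.21, 1.23 for Cdh1, 0.955 for Vim and 11.01 points. At Leiden resolution 0.5 they were 0.48, 1.58 for Cdh1, 1.55 for Cdh2, 18 higher, 0 lower and 13.0 points. Without Zfp804b-Ralyl they were 0.48, 1.58 for Cdh1, 1.60 for Cdh2, 1.02 for Vim, 18 higher, 0 lower and 16.1 points. Resolution 0.5 left 1475 and 1194 tumor-like cells, so these 2 settings may be largely the same change. With each library clustered alone they were 0.23 and 1.02 for Vim. Means over cells gave 0.31 and 4.93 for Cdh2, and subtraction of the granulocyte-like level 0.24, 11.6 for Cdh2 and 0.979 for Vim. A doublet removal set to the top 8% of scores gave 0.977 for Vim. Without a filter on low counts 4 list genes were lower, and with at least 500 UMIs 7 were higher and 0 lower. The difference in cells with both UMIs was 4.72 points at 2000 UMIs per cell and 11.5 at 10000. Equal weight for 3 subpopulations, chosen after seeing the data, gave 0.22, 1.14 for Cdh1, 1.21 for Cdh2 and 1.10 for Vim. Other than by the construction of the alternatives, the cause was not tested. Leaving out the 46 shared barcodes, also chosen after seeing the data, moved none of the 4 values recomputed by more than its counting error.

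One mouse per group is the main limit, since no value has a spread between mice. The granulocyte-like level was taken as background, so ratios of values at or under it say nothing of tumor cells, and 340 and 270 tumor-like cells were too shallow for 5000 UMIs. The Zfp804b-Ralyl values of KPC-shV rest on 11 cells.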
